A study of Mus musculus with 72 samples.

Results

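Kupffer cells are the resident macrophages of the liver sinusoid, where they take up bacteria, particles, lipids and dying blood cells from the portal flow. The 10 genes described here mark these cells or macrophages in general: Clec4f, Cd5l, Vsig4, Timd4, Marco, Adgre1, Cd68, Csf1r, C1qa and C1qb. They were taken as a named list, found by Ensembl ID in a gene count table of 51912 genes through the symbols of the submitters' table of comparisons, and all 10 were among the 19362 genes tested. They were followed in RNA sequencing of whole liver from 72 mice.

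The mice were of the inbred strains DBA/2J and C57BL/6J, male or female, on a Low Protein, Medium Protein or Control diet, which gives 12 groups of 6 animals. Every mouse was 23 weeks old, had been on its diet for 13 weeks from week 10, was kept at about 22 °C and was fasted for 16 h before the liver was taken. The labels name no transgene, deletion or drug, and do not give the protein content of the diets. Each library is whole liver, so a lower value can mean fewer cells of a type or less RNA in each cell, and these cannot be told apart. Replicate numbers below are in the order of deposit and do not pair animals.

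Kupffer cells are seeded before birth and renew themselves in the liver, and they depend on the receptor encoded by Csf1r and its ligands CSF1 and IL-34. The transcription factors PU.1, MAF proteins and the liver X receptor alpha are known to hold their gene programme in the mouse. By role, Marco (a scavenger receptor for bacteria and particles), Vsig4 (a complement receptor for C3 fragments), Clec4f (a C-type lectin of Kupffer cells in mouse) and Timd4 (a receptor for phosphatidylserine on dying cells) are capture receptors. Adgre1 encodes the surface antigen F4/80 and Cd68 a lysosomal glycoprotein. Cd5l encodes a secreted macrophage protein, and C1qa and C1qb encode chains of the complement component C1q.

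The 250 bases before the transcription start of 3 members are shown: Marco as the most variable member, Vsig4 as the member with the clearest sex difference, and Clec4f as a member that stayed within the range of its group in the library with the highest Marco. The sequences are RefSeq's on GRCm38.p6, and a promoter was found there for 7 of the 10 members. Capitals mark 3 motifs searched on both strands: GAGGAA of PU.1, TGCTGA of MAF proteins and the nuclear receptor element AGGTCA.
Marco, chr1:120505025-120505274, minus strand: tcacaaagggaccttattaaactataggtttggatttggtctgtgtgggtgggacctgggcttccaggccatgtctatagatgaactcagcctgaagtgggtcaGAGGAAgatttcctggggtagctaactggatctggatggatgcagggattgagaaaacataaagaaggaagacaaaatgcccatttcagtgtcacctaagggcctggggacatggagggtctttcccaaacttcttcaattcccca
Vsig4, chrX:96293439-96293688, minus strand: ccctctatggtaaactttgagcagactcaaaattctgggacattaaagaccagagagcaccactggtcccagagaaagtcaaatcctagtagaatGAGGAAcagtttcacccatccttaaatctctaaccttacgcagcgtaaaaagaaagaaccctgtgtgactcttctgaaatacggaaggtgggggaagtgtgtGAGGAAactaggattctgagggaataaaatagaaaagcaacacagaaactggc
Clec4f, chr6:83656117-83656366, minus strand: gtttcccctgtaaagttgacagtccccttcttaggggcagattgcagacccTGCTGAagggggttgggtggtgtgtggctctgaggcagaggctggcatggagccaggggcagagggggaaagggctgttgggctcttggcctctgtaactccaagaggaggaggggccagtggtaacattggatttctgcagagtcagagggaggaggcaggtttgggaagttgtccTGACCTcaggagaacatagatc
Marco held 1 GAGGAA, Vsig4 held 2 and Clec4f held none. Clec4f held 1 TGCTGA and 1 AGGTCA, which Marco and Vsig4 did not. Of the members found but not shown, Timd4 held no GAGGAA either, with 2 TGCTGA and 1 AGGTCA. Cd5l held 1 GAGGAA and 2 TGCTGA, C1qb 1 of each of these, and Cd68 only 1 GAGGAA. Timd4, unlike Clec4f, was high in the library with the highest Marco. Any bearing of these motifs on the levels was not tested. Of all 32851 RefSeq promoter windows of this length, 23.3% held GAGGAA, 16.1% held TGCTGA and 14% held AGGTCA, so a match here is a description of the letters.

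Libraries held 26.9 M to 38.4 M counts, with a median of 32.4 M, and no member had fewer than 9 counts in any library. Xist and Ddx3y separated the sexes, and Hc the strains, with no overlap between libraries. In 4 libraries, all from males, 3.36% to 15.1% of counts came from ribosomal-like transcripts. In 4 libraries Saa1, an acute phase gene, exceeded 500 CPM, with 626 to 1348 CPM. Below that cut, every C57BL/6J male Medium Protein library held 140 to 484 CPM of Saa1. Levels below are in CPM, the counts of a gene scaled to a fixed total with TMM factors, which compare libraries for 1 gene and not genes with each other.

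In some animals most members were high or low together. For each library, each member was set against the median of the other 5 libraries of its group. DBA/2J male Low Protein replicate 6 had all 10 members over 1.5-fold above that median, by 1.94-fold to 10.5-fold. C57BL/6J male Control replicate 1 also had all 10 over 1.5-fold, by 1.60-fold to 2.28-fold. That library is also 1 of the 4 with much ribosomal-like RNA, at 4.84% of counts. C57BL/6J female Low Protein replicates 1 and 2 had 9 each, and C57BL/6J female Control replicate 3 had 8. In the other direction, C57BL/6J male Low Protein replicate 1 had 9 members below the other 5 by more than 1.5-fold, and DBA/2J female Medium Protein replicate 4 had 8. These 7 libraries stand apart, and the comparisons of diet, sex and strain are also described without them. Without them 88 of 230 estimates for the members, over 23 comparisons, changed sign, and 0 of these had been called with all libraries. The 7 were picked on the members' own values, so the values without them are a description of how much rests on them.

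**Figure D1:**
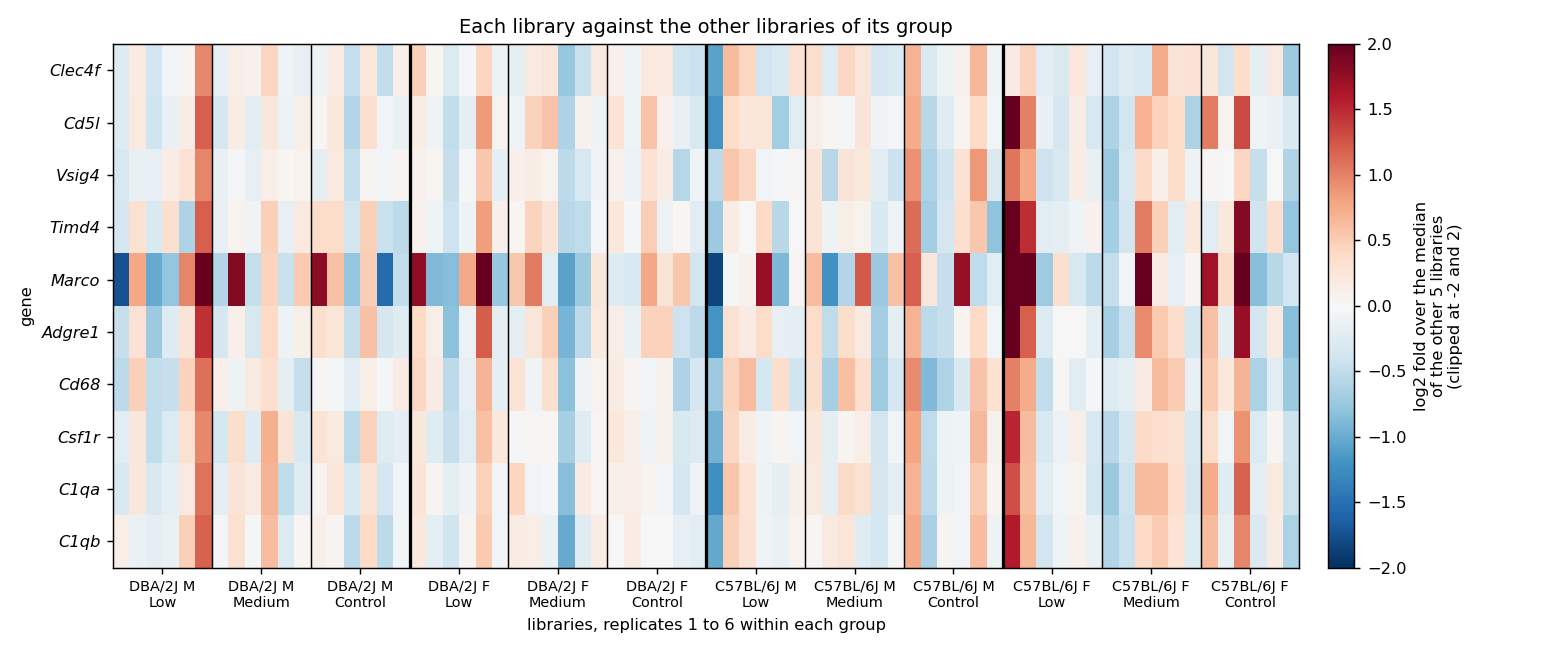
Each column is 1 of the 72 libraries and each row 1 of the 10 genes; colour is the log2 fold of the CPM over the median of the other 5 libraries of the same group, clipped at -2 and 2. Whole columns turn red or blue, as in DBA/2J male Low Protein replicate 6, where all 10 genes were high, and the Marco row has the widest range.

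The most extreme library was C57BL/6J female Low Protein replicate 1. Marco stood at 289 CPM there, against 3.12, 3.50, 4.10, 5.11 and 33.6 CPM in the other 5 animals of the group. Cd5l stood at 320 CPM (next highest 139 CPM) and Timd4 at 25.9 CPM (next highest 9.87 CPM). Clec4f, by contrast, was at 68.2 CPM, inside the range of 55.8 to 82.5 CPM of the other 5. In the same library Alb was at 20490 CPM, against 48886 to 57643 CPM in the other 5, and the acute phase genes Saa1 and Orm2 were at 626 and 818 CPM, against at most 9.88 CPM of Saa1 and 7.34 CPM of Orm2. C57BL/6J female Control replicate 3 had Marco at 59.9 CPM and Timd4 at 15.8 CPM with Saa1 at only 7.46 CPM. The part of the acute phase genes in the members' levels was not tested.

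**Figure D2:**
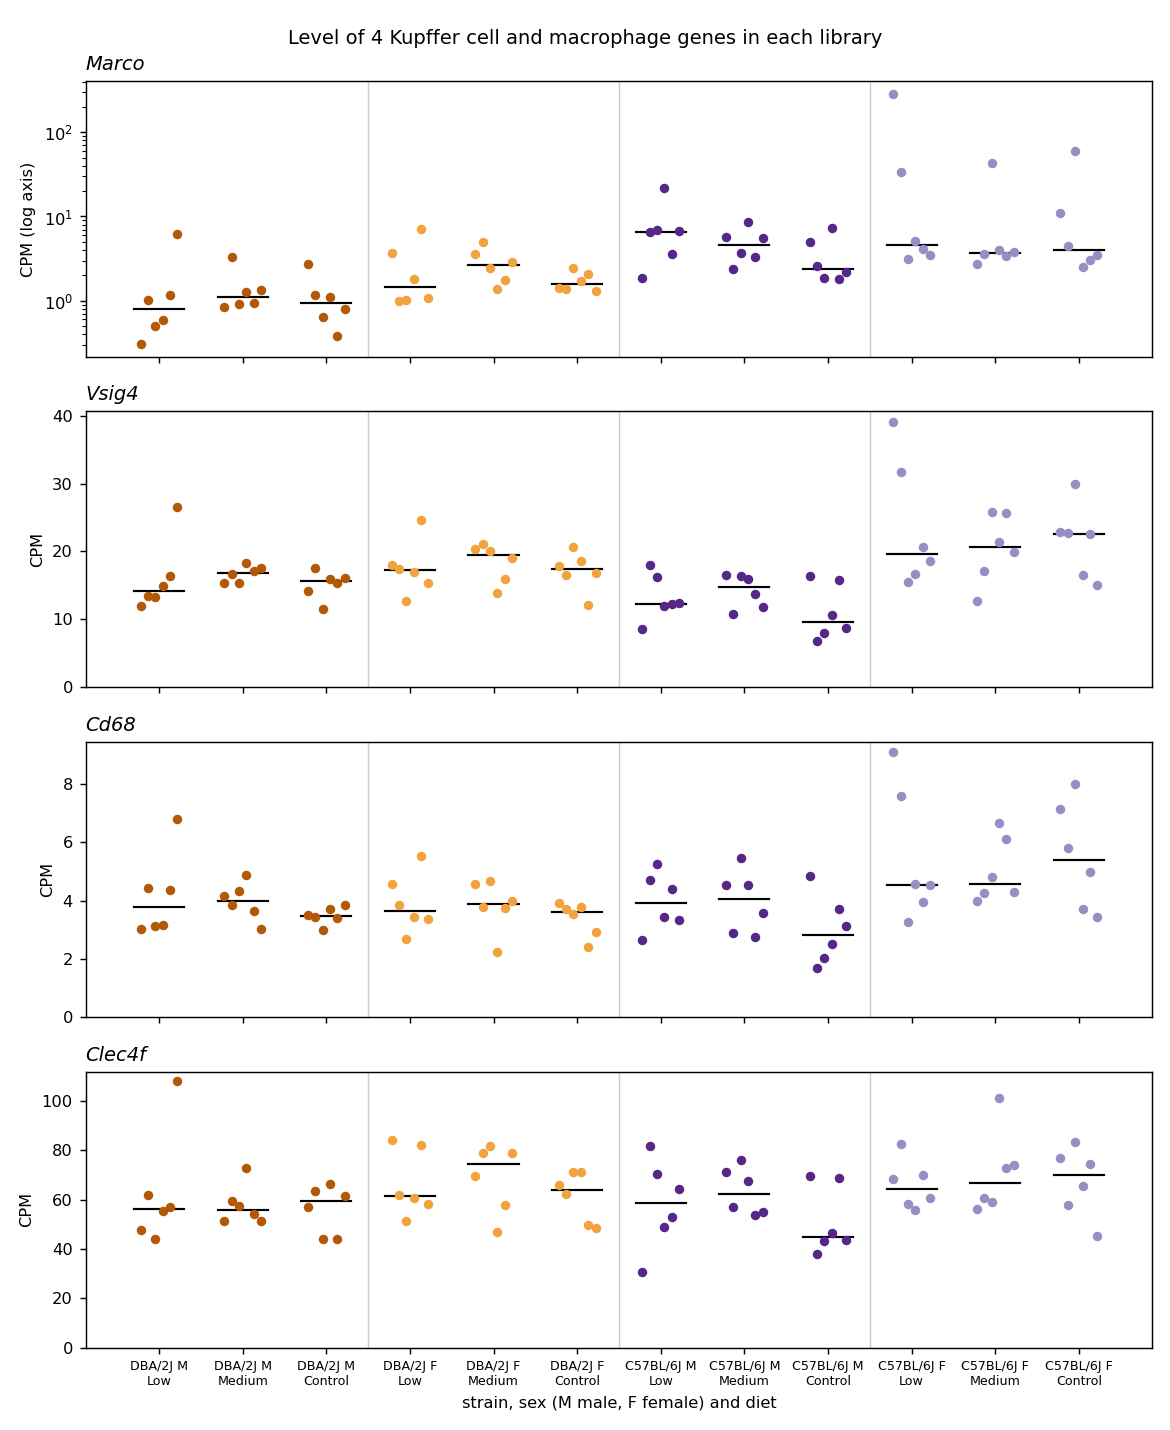
Level in CPM of Marco (log axis), Vsig4, Cd68 and Clec4f in each library of the 12 groups (points) with the group median (line). Marco reaches 289 CPM in 1 C57BL/6J female and stays at or below 7.04 CPM in DBA/2J, and Vsig4 is low in C57BL/6J males.

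Within groups the members varied together. Over the 72 libraries, with each group's mean taken out, the 45 pairs of members had a Pearson r of 0.43 to 0.94 with a median of 0.83, and a Spearman rho of 0.51 to 0.91. Leaving out the 2 libraries farthest out on the first gene of the pair left r at 0.34 to 0.93. In permutation tests within groups, 2-sided and with 100000 permutations, 44 pairs gave the smallest p these can give for r (1e-05, 1e-05 after Benjamini-Hochberg adjustment over the 45). The loosest pair was Clec4f with Marco, with r = 0.43 (permutation p = 3.8e-04, adjusted 3.8e-04), rho = 0.51 and r = 0.34 without 2 libraries. The tightest pairs were Csf1r with C1qb (r = 0.94) and C1qa with C1qb (r = 0.94), which are chains of 1 protein. The libraries share their scaling, which enters every pair.

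By the r between a gene's deviations and the mean of the members' scaled deviations over the 72 libraries, the first 8 genes outside the list were Cybb (r = 0.94), Cd44 (0.92), Cfp (0.91), C1qc (0.91), Adgre4 (0.90), Tyrobp (0.90), Sdc3 (0.90) and Nckap1l (0.90). Cybb encodes a subunit of the phagocyte NADPH oxidase and C1qc the remaining C1q chain. Without the 2 libraries farthest out, these 8 stood at r = 0.86 to 0.91. Each member set against the mean of the other 9 gave r = 0.96 for Adgre1 and Csf1r at the top, and 0.77 for Marco and 0.76 for Clec4f at the bottom. Without 2 libraries Marco stood at r = 0.70 and Clec4f at 0.843, above Cd68 at 0.837 and Timd4 at 0.828. The low place of Clec4f by r thus rested on those libraries. By Spearman rho over all libraries Marco was at 0.74 and Clec4f at 0.8165, still just under Timd4 at 0.8173.

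The first comparison asked whether dietary protein changed the members. No member passed the threshold for the mean Low Protein effect over the 4 strain and sex combinations (0 of 10 by edgeR's quasi-likelihood test at an adjusted p under 0.05, where 8.01% of all genes tested were called). At an unadjusted p under 0.05 there was 1 member, Marco. DESeq2 called 1 member and limma-voom called 0. All 10 estimates were above 0, with a median log2 fold change of 0.14, against 0.01 over all genes tested. With the 7 libraries that stand apart left out, the median was 0.08, 9 estimates were above 0, Timd4 was at -0.04, and 0 members were called. The 95% intervals of the 9 members other than Marco, with all libraries, lay between -0.22 and 0.65 on the log2 scale.

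Marco gave the largest diet estimate. In C57BL/6J females its lowest, median and highest levels were 3.12, 4.60 and 289 CPM on Low Protein, 2.70, 3.68 and 42.9 CPM on Medium Protein, and 2.50, 3.97 and 59.9 CPM on Control. In C57BL/6J males they were 1.85, 6.58 and 21.8 CPM on Low Protein, 2.36, 4.58 and 8.55 CPM on Medium Protein, and 1.79, 2.36 and 7.28 CPM on Control. The diets overlapped in both sexes, and in females the 3 medians lay within 1 CPM of each other. In DBA/2J the medians were 0.80, 1.10 and 0.95 CPM in males and 1.45, 2.67 and 1.56 CPM in females on Low Protein, Medium Protein and Control. The mean log2 fold change of Marco on Low Protein was 1.08 ± 0.43 (SE, adjusted p = 0.113). Without C57BL/6J female Low Protein replicate 1 it was 0.45 (adjusted p = 0.531), and without C57BL/6J female Control replicate 3 it was 1.46 (adjusted p = 0.0155). In C57BL/6J females alone, the log2 fold change over Control of 1.99 ± 0.76 (adjusted p = 0.137) became -0.52 (adjusted p = 0.769) without the first of these libraries and 3.52 (adjusted p = 0.00766) without the second. Marco's diet estimate in these females thus changed sign with 1 animal left out.

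Taken diet by diet, no member was called in any strain and sex. For Low Protein against Control, 0 of 10 were called in DBA/2J males (0.0930% of all genes called), DBA/2J females (0.816%), C57BL/6J males (9.78%) and C57BL/6J females (3.25%). For Medium Protein against Control, 0 of 10 were called in DBA/2J males (0.00516%), DBA/2J females (0.00516%), C57BL/6J males (0.418%), C57BL/6J females (0%) and in their mean (0%). For Low Protein against Medium Protein, 0 of 10 were called in DBA/2J males (0%), DBA/2J females (0.0413%), C57BL/6J males (6.53%) and C57BL/6J females (1.94%). At an unadjusted p under 0.05 there was 1 member in C57BL/6J females on Low Protein against Control (Marco), 3 on Low Protein against Medium Protein (Marco, Cd5l and Timd4), and 0 in each other one. Differences of the Low Protein effect between sexes or strains also called 0 of 10, at an unadjusted p under 0.05 too, with backgrounds of 4.56% (C57BL/6J, males minus females), 0% (DBA/2J, males minus females), 2.88% (males, DBA/2J minus C57BL/6J) and 0.0930% (females, DBA/2J minus C57BL/6J). Among the 7 libraries that stand apart are C57BL/6J male Control replicate 1, with 10 members high, and Low Protein replicate 1, with 9 low. Leaving both out raises the Low Protein estimates in these males by the choice itself, so the adjusted p-values are no test of diet. Without the 7, Vsig4 (0.51, adjusted p = 0.0493) and Cd68 (0.71, adjusted p = 0.0144) were called higher on Low Protein than on Control in C57BL/6J males. Cd68 was then also called for the difference of this effect from that in females (1.01, adjusted p = 0.0283). In C57BL/6J females the omission takes out high libraries, Low Protein replicates 1 and 2 and Control replicate 3. All 10 estimates there for Low Protein against Control were then below 0, with a median of -0.18. With all libraries 8 of 10 were above 0. In DBA/2J males, where the omission takes out the high Low Protein replicate 6, 8 of 10 were then below 0, against 1 with all libraries. In the authors' deposited table, none of 120 values for the members had a Benjamini-Hochberg p below 0.05, and the lowest was 0.225, for Cd68.

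**Figure D3:**
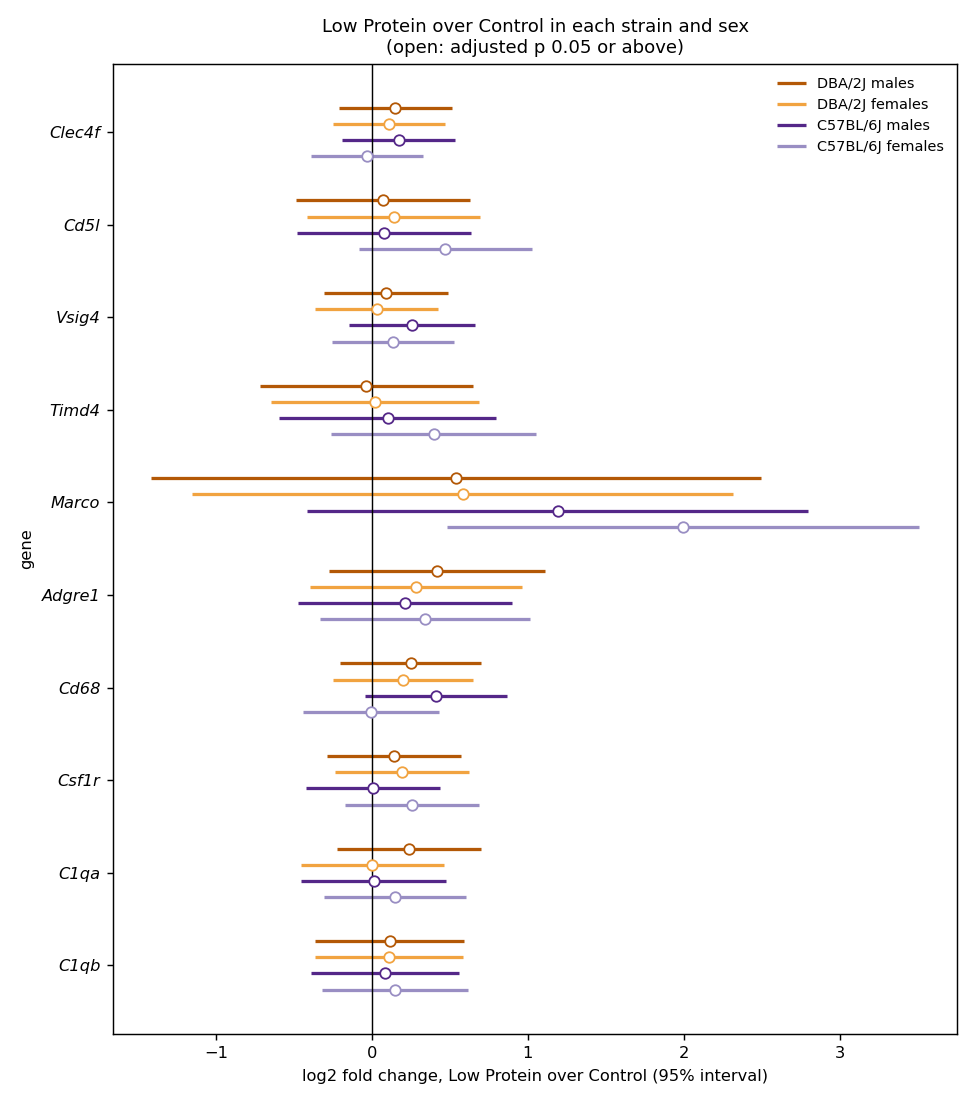
Log2 fold change of Low Protein over Control for each gene in DBA/2J males, DBA/2J females, C57BL/6J males and C57BL/6J females (points, from top to bottom within a gene) with 95% intervals. Every point is open (adjusted p 0.05 or above), and the interval of Marco is the widest, with an estimate of 1.99 in C57BL/6J females.

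For the further macrophage lists too, the background of the mean Low Protein effect was 8.01% of all genes called. Of 14 further Kupffer cell genes, 1 rose on Low Protein in the mean over strains and sexes: Cd163, the haptoglobin-haemoglobin scavenger receptor (log2 fold change 0.43 ± 0.12, adjusted p = 0.0115). Of 18 general myeloid genes, 1 rose, Cd14, a co-receptor for bacterial lipopolysaccharide (0.44). Of 8 genes of lipid-associated macrophages, 2 rose, Cd63 (0.60 ± 0.11) and Cd9 (0.47 ± 0.11), both tetraspanins that other liver cells also express, and 1 fell, Lpl (-0.48). None of 9 tested monocyte genes, 6 antigen presentation genes or 12 tested ligand and niche genes was called. The median log2 fold changes of these lists were 0.05, 0.12, -0.01, 0.05, 0.14 and 0.13, against 0.01 over all genes. Cd163, Cd63 and Cd9 were also called without the 7 libraries that stand apart, and Cd14 (0.32, adjusted p = 0.0711) and Lpl (-0.50, adjusted p = 0.0605) were not.

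The sex comparison gave the largest set of calls. In C57BL/6J, 9 of 10 members were lower in males than in females in the mean over diets, all but Clec4f, where 42.2% of all genes tested were called and 20.9% were lower in males. The median log2 fold change of the members was -0.58, against -0.02 over all genes. In DBA/2J, 0 of 10 members were called (39.2% of all genes called), 1 member had an unadjusted p under 0.05, DESeq2 and limma-voom called 1 each, and the members' median was -0.17, against -0.01 over all genes. The difference of the sex effect between the strains was called for 2 of 10 members, Vsig4 and Cd68 (20.2% of all genes called). For the other members the 9 calls against 0 are no evidence that the strains differ.

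Vsig4 had the smallest p. In C57BL/6J its lowest, median and highest levels over 18 animals of a sex were 6.86, 12.3 and 18.0 CPM in males, and 12.7, 21.03 and 39.1 CPM in females. In DBA/2J they were 11.6, 15.7 and 26.5 CPM in males, and 12.1, 17.7 and 24.6 CPM in females. C57BL/6J males were low as a set and overlapped the females only at the low end of these, while the DBA/2J sexes covered much the same range. The log2 fold change of males over females was -0.78 ± 0.12 (adjusted p = 9.09e-08) in C57BL/6J and -0.15 in DBA/2J (95% interval -0.38 to 0.08, adjusted p = 0.316). It was -0.97 on Control (adjusted p = 2.48e-04), -0.84 on Low Protein (adjusted p = 7.63e-04) and -0.52 on Medium Protein (adjusted p = 0.0611) in C57BL/6J. Without the 7 libraries that stand apart it was -0.62 (adjusted p = 4.6e-07) in C57BL/6J and -0.24 (adjusted p = 0.0313) in DBA/2J. In DBA/2J the omission takes out a high male and a low female and lowers the estimate by the choice itself, so that value is no test of sex.

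Cd68 followed the same order. Its levels were 1.69, 3.52 and 5.46 CPM (lowest, median, highest) in C57BL/6J males, and 3.27, 4.695 and 9.09 CPM in C57BL/6J females. In DBA/2J they were 3.00, 3.68 and 6.79 CPM in males, and 2.25, 3.77 and 5.54 CPM in females. The groups overlapped in both strains, with the lowest C57BL/6J males below every female of their strain. The log2 fold change was -0.57 ± 0.13 (adjusted p = 2.45e-04) in C57BL/6J and 0.06 in DBA/2J (95% interval -0.20 to 0.32, adjusted p = 0.746).

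Csf1r, through which CSF1 and IL-34 keep macrophages alive, stood at 23.6, 44.3 and 63.3 CPM in C57BL/6J males, and 40.1, 55.1 and 149 CPM in C57BL/6J females. Its log2 fold change was -0.51 ± 0.12 (adjusted p = 6.89e-04) in C57BL/6J and -0.28 ± 0.12 (adjusted p = 0.0635) in DBA/2J. The sexes overlapped in both strains. For the C1q chains the medians in C57BL/6J were 16.2 CPM in males and 18.8 CPM in females for C1qa, and 16.6 CPM in males and 19.8 CPM in females for C1qb. Their log2 fold changes were -0.43 (adjusted p = 0.00711) and -0.49 (adjusted p = 0.00261).

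The remaining calls rested more on high females. Marco was at 1.79, 4.32 and 21.8 CPM in C57BL/6J males, and 2.50, 3.89 and 289 CPM in C57BL/6J females. The female median was below the male one, and 4 of the 18 females, at 289, 59.9, 42.9 and 33.6 CPM, exceeded every male. The fitted log2 fold change of -1.98 ± 0.46 (adjusted p = 2.93e-04) is a ratio of group means; limma-voom, on log values, gave -0.83 (adjusted p = 0.137), and without C57BL/6J female Low Protein replicate 1 it was -1.14 (adjusted p = 0.0154). Timd4 was at 2.06, 3.94 and 6.17 CPM in males, and 2.98, 4.29 and 25.9 CPM in females, with a log2 fold change of -0.76 (adjusted p = 0.00117) that became -0.49 (adjusted p = 0.0133) without the same library. Cd5l was at 31.6, 63.7 and 87.0 CPM in males, and 53.6, 68.7 and 320 CPM in females, with -0.62 (adjusted p = 0.00129). Adgre1 was at 6.93, 14.5 and 19.0 CPM in males, and 9.13, 14.6 and 76.8 CPM in females. Its log2 fold change of -0.60 (adjusted p = 0.0107) was -0.36 (adjusted p = 0.0885) without the same library and -0.42 (adjusted p = 0.0697) by limma-voom. The medians of males and females were close for these 4 genes, and the highest values all belonged to females.

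Without the 7 libraries that stand apart, 4 of 10 members were called lower in C57BL/6J males: Vsig4, Cd68 (-0.42, adjusted p = 0.00171), Csf1r (-0.27, adjusted p = 0.0110) and C1qb (-0.25, adjusted p = 0.0385). Adgre1 then stood at -0.09 and Marco at -0.17. In DBA/2J the same omission, which takes out 1 high male and 1 low female, gave 8 of 10 members lower in males, all but Cd68 and C1qa, with Csf1r at -0.38 (adjusted p = 2.43e-04) and Adgre1 at -0.50 (adjusted p = 0.00105). Of all genes 40.2% were then called in C57BL/6J (20% lower in males) and 38.4% in DBA/2J (18.6% lower). Taking out that male and that female lowers the DBA/2J estimates by the choice itself, so the adjusted p-values there are no test of sex. In C57BL/6J all 10 estimates were below 0 with and without these libraries. In DBA/2J 9 were below 0 with all libraries, all but Cd68, and all 10 were without the 7. Scaling by library totals moved the median of all genes to -0.25 in each strain, and called all 10 members in C57BL/6J and 7 in DBA/2J. The share of all genes called under that scaling was not counted, so these counts are no result about the members.

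**Figure D4:**
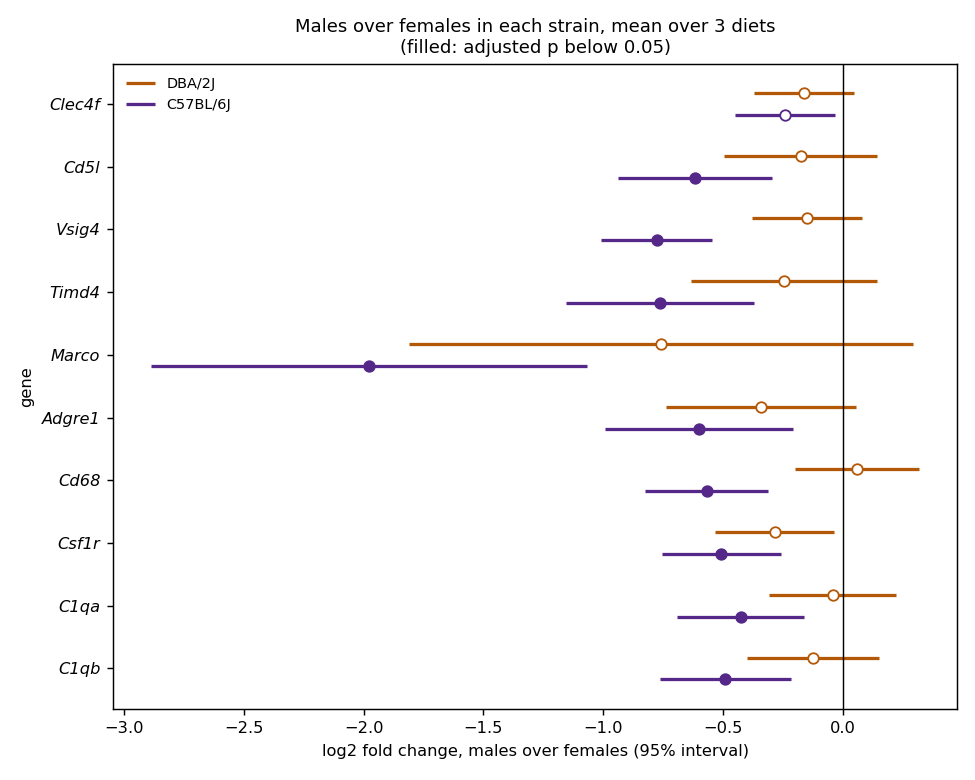
Log2 fold change of males over females in DBA/2J (upper point of each gene) and C57BL/6J (lower point), mean over 3 diets, with 95% intervals; filled points have an adjusted p below 0.05. In C57BL/6J 9 of 10 points are filled and all lie below 0, from -0.24 for Clec4f to -1.98 for Marco, and in DBA/2J none is filled. The difference between the strains was called for 2 genes, Vsig4 and Cd68.

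The sex calls in C57BL/6J differed by diet in number. Males were lower for 6 members on Low Protein (28.2% of all genes called, 13.8% lower), 0 on Medium Protein (16.5%) and 2 on Control (20.8%, 9.18% lower), the 2 being Vsig4 and Cd68. Whether the sex difference itself depends on Medium Protein was not tested. The Low Protein effect, males minus females, called 0 members in C57BL/6J. Low Protein includes female replicates 1 and 2, with 9 members high each, and male replicate 1, with 9 low, which all set males lower. Control includes male replicate 1 and female replicate 3, both high, and Medium Protein none of the 7 libraries. These counts by diet were not recomputed without them. In DBA/2J the count was 0 on Low Protein (18.8%), 0 on Medium Protein (13.2%) and 0 on Control (18.3%). All 10 estimates in C57BL/6J were below 0 on each diet. At an unadjusted p under 0.05 there were 9, 1 and 9 members in C57BL/6J on Low Protein, Medium Protein and Control, and 0 on each diet in DBA/2J.

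In C57BL/6J, where 42.2% of all genes were called and 20.9% were lower in males, 8 of 14 further Kupffer cell genes were lower in males and none higher. Of 18 general myeloid genes 15 were lower and none higher. These counts were 5 of 14 and 10 of 18 without the 7 libraries that stand apart. Spic, a transcription factor of iron-recycling macrophages, had medians of 0.768 CPM in males and 1.45 CPM in females (log2 fold change -1.33 ± 0.23). Cd14 had 1.11 CPM in males and 2.01 CPM in females (-0.95), and Lyz2, the lysozyme of myeloid cells, had 23.6 CPM in males and 30.4 CPM in females (-0.83). Cxcl13, a B cell chemokine, gave -3.25 ± 0.48, with 1.69 CPM as the highest male and 95.6 CPM, in C57BL/6J female Low Protein replicate 1, as the highest female. Leaving out the 7 libraries put Spic at -0.83, Cd14 at -0.62, Lyz2 at -0.41 and Cxcl13 at -1.45, all still called. In DBA/2J, where 39.2% of all genes were called, 5 of the 14 Kupffer cell genes and 6 of the 18 myeloid genes were lower in males and none higher. The counts were 7 of 14 and 11 of 18 without the 7 libraries. Of genes for ligands and niche factors, Bmp10 fell in males of both strains (-0.57 in C57BL/6J, -0.21 in DBA/2J), and Csf1, the ligand of the Csf1r product, fell in DBA/2J males (-0.42 ± 0.07).

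Markers of other cells were also called between the sexes, against the same backgrounds of 42.2% of all genes in C57BL/6J and 39.2% in DBA/2J. In C57BL/6J males 4 of 5 B and plasma cell genes were lower, with summed levels of 1.40 to 4.23 CPM in males and 2.87 to 14.6 CPM in females. The 5 red blood cell genes were all higher in C57BL/6J males, with sums of 126 to 476 CPM in males and 61.2 to 194 CPM in females. Of 9 sinusoidal endothelial genes 1 was lower and 1 higher, with sums of 271 to 432 CPM in males and 282 to 455 CPM in females. Of 6 tested T and NK cell genes 2 were lower, with sums of 0.801 to 3.89 CPM in males and 1.35 to 2.81 CPM in females. In DBA/2J males 4 of 5 B and plasma cell genes were lower and 1 higher, and 4 of 5 red blood cell genes were higher. No gene of these lists was at 0 in every library. Their part in the members' sex difference was not tested.

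In the strain comparison Marco had the largest estimate in both sexes. In females DBA/2J was lower than C57BL/6J for 4 of 10 members and higher for none, where 49.8% of all genes were called and 25.7% were lower. In males 1 member was lower and 1 higher, where 51.1% of all genes were called, 26.0% lower and 25.1% higher. Once the 7 libraries that stand apart were left out, 3 members were called lower in DBA/2J females (Marco, Cd68 and C1qb) and 3 higher (Cd5l, Timd4 and Csf1r), and in DBA/2J males 2 were lower (Marco and C1qb) and 1 higher (Vsig4). In that fit 48.1% of all genes were called in females and 50% in males. Among females the omission takes out high C57BL/6J libraries (Low Protein replicates 1 and 2, Control replicate 3) and low DBA/2J Medium Protein replicate 4. That raises DBA/2J over C57BL/6J by the choice itself, so the adjusted p-values for females without the 7 are no test of strain.

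Marco averaged 2.39 ± 1.59 CPM in DBA/2J females and 26.8 ± 67.4 CPM in C57BL/6J females, and 1.40 ± 1.42 CPM in DBA/2J males and 5.38 ± 4.63 CPM in C57BL/6J males (SD, n = 18 each). The medians were 1.78 CPM in DBA/2J females and 3.89 CPM in C57BL/6J females, and 0.972 CPM in DBA/2J males and 4.32 CPM in C57BL/6J males. Over all 36 animals of a strain, the highest DBA/2J value was 7.04 CPM and the highest C57BL/6J value 289 CPM, and the ranges overlapped. The log2 fold change of DBA/2J over C57BL/6J was -3.11 ± 0.48 in females (adjusted p = 1.2e-07) and -1.89 ± 0.51 in males (adjusted p = 0.00145). Without the 7 libraries that stand apart these became -1.27 (adjusted p = 9.28e-04) in females and -2.30 (adjusted p = 1.53e-07) in males, and without C57BL/6J female Low Protein replicate 1 alone the female value was -2.27 (adjusted p = 3.45e-06). Marco was called in males on Low Protein (-2.28, adjusted p = 0.0313), and in females on Low Protein (-4.46, adjusted p = 2.97e-05) and Control (-3.05, adjusted p = 0.00388). Its difference between the sexes was not called (1.22 ± 0.70, adjusted p = 0.224), and without the 7 libraries its estimate was -1.03 (adjusted p = 0.132).

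Vsig4 went opposite ways in the 2 sexes. With the levels given above, it was higher in DBA/2J males than in C57BL/6J males (0.32 ± 0.12, adjusted p = 0.0175) and lower in DBA/2J females than in C57BL/6J females (-0.31 ± 0.11, adjusted p = 0.0192). The difference between these strain effects, males minus females, was 0.63 ± 0.16 (adjusted p = 0.00311). Cd68 was lower in DBA/2J females (-0.53 ± 0.13, adjusted p = 3.57e-04) and was 0.10 in males (95% interval -0.16 to 0.36), a difference between the sexes of 0.63 ± 0.18 (adjusted p = 0.00919). These 2 were the only members called for this difference by edgeR, where 20.2% of all genes were called and 9.94% in the same direction. All 10 estimates were above 0 with all libraries, and 6 of 10 were below 0 without the 7. The difference was then 0.38 for Vsig4 (adjusted p = 0.0346) and 0.37 for Cd68, which was then not called (adjusted p = 0.0764). Vsig4 was then at 0.27 in males (adjusted p = 0.0128) and -0.11 in females (adjusted p = 0.359), and Cd68 at -0.30 in females (adjusted p = 0.0166). The single calls of Vsig4 were lost without 1 animal each: 0.25 (adjusted p = 0.0547) in males without DBA/2J male Low Protein replicate 6, and -0.24 (adjusted p = 0.0607) in females without C57BL/6J female Low Protein replicate 1.

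C1qb was lower in DBA/2J females, with 10.3, 15.4 and 21.6 CPM in DBA/2J and 13.6, 19.8 and 53.9 CPM in C57BL/6J (-0.54 ± 0.14, adjusted p = 6.43e-04). C1qa, the partner chain, gave -0.25 (95% interval -0.52 to 0.01, adjusted p = 0.110). C1qb was at -0.25 (adjusted p = 0.0293) and C1qa at 0.02 (adjusted p = 0.878) without the 7 libraries. Clec4f was not called between strains, at 0.03 in males (95% interval -0.18 to 0.24) and -0.05 in females (95% interval -0.26 to 0.16), with medians between 56.1 and 66.9 CPM in the 4 sets of 18 animals. For Cd5l, Timd4, Csf1r and Adgre1 no strain difference was called, and their estimates lay between -0.41 and 0.31. With those libraries left out, Cd5l (0.27, adjusted p = 0.0388), Timd4 (0.41, adjusted p = 0.00232) and Csf1r (0.21, adjusted p = 0.0417) were called higher in DBA/2J females, and Adgre1 was at 0.15 (adjusted p = 0.370). All 4 estimates in females were below 0 with all libraries, so these calls have the opposite sign. Leaving those libraries out raises the estimates in females by the choice itself, so the calls are no test of strain. Diet by diet, the strain called 1 member in males on Low Protein (35.2% of all genes, 17.3% lower), 0 on Medium Protein (28.8%) and 0 on Control (30.5%). In females it called 2 on Low Protein (33.1%, 16.8% lower), Marco and C1qb, 0 on Medium Protein (26.5%) and 3 on Control (27.8%, 14.0% lower), Marco, Cd68 and C1qb. The strain counts by diet were not recomputed without the libraries that stand apart.

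**Figure D5:**
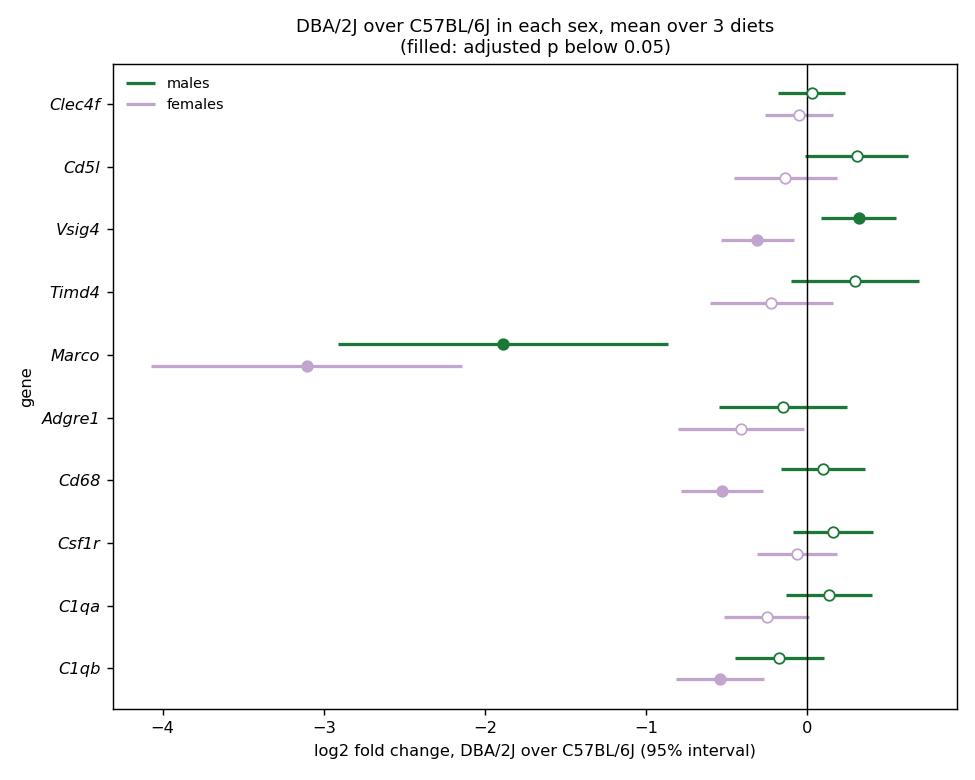
Log2 fold change of DBA/2J over C57BL/6J in males (upper point of each gene) and females (lower point), mean over 3 diets, with 95% intervals; filled points have an adjusted p below 0.05. Marco lies far to the left in both sexes (-1.89 and -3.11), and Vsig4 is filled on opposite sides of 0.

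Macrophage genes outside the list were also compared between strains. Folr2, a folate receptor of resident macrophages, had medians of 0.322 CPM in DBA/2J males and 3.98 CPM in C57BL/6J males, and 0.455 CPM in DBA/2J females and 4.26 CPM in C57BL/6J females, and the strains did not overlap in either sex (-3.60 ± 0.24 in males, -3.56 ± 0.22 in females). Siglec1, the sialoadhesin of tissue macrophages, was higher in DBA/2J (0.91 ± 0.15 in males, 0.86 ± 0.14 in females), as was Mpeg1, the pore-forming perforin-2 (0.78 in males, 0.69 in females). Trem2, a lipid receptor, had medians of 0.115 CPM in DBA/2J males and 0.421 CPM in C57BL/6J males (-1.70 ± 0.32). Spp1, osteopontin, which bile duct cells also express, had medians of 8.89 CPM in DBA/2J males and 21.6 CPM in C57BL/6J males (-1.28 ± 0.13). The 5 cholangiocyte genes, of which Spp1 is 1, had summed levels of 9.72 to 17.9 CPM in DBA/2J males and 16.9 to 38.8 CPM in C57BL/6J males. In females the sums were 8.24 to 13.9 CPM in DBA/2J and 18.1 to 61.6 CPM in C57BL/6J. Of these genes 2 were lower in DBA/2J and none higher in each sex, and none was at 0 in every library; their part in the result was not tested. Against backgrounds of 51.1% of all genes called in males and 49.8% in females, of 14 further Kupffer cell genes 4 were higher and 3 lower in DBA/2J males, and 2 were higher and 8 lower in DBA/2J females. Of 18 general myeloid genes 4 were higher and 2 lower in males, and 2 were higher and 7 lower in females. Without the 7 libraries that stand apart, the further Kupffer cell genes gave 4 higher and 4 lower in males, and 2 higher and 5 lower in females, and the general myeloid genes gave 5 higher and 2 lower in males, and 3 higher and none lower in females.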

How the data were processed

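Whole-liver RNA of 72 mice was sequenced as stranded libraries with polyA enrichment, pooled over 2 lanes, per the labels. The authors deposited RSEM expected counts per gene; RSEM, edgeR, limma and R 3.4.3 are named, per the submitters' processing notes. Which aligner, genome build and annotation served is not given in the sources used here. Also deposited by the authors were log2 fold changes, p-values and 1 score (an F statistic, not used) for the diet comparisons. Totals were 26.9 M to 38.4 M counts, and 11.6% of values were not whole, so counts were rounded. Symbols came from the authors' table (17575 IDs) or GENCODE M21 (34106 IDs). Genes were filtered with filterByExpr, scaled by TMM and fitted with 12 group means in edgeR 4.0.16 (R 4.3.3; glmQLFit, glmQLFTest, 2-sided), with Benjamini-Hochberg adjustment over 19362 genes and a threshold of 0.05. The SE is the size of the log2 fold change over the root of its F. The code was tested on simulated data. Alternatives used limma 3.58.1, DESeq2 1.42.0, other scalings, filters, the letter of the code in the labels and left-out libraries. Levels are CPM of TMM-scaled totals, and correlations use log2 CPM with a prior count of 2. All 10 members are named; from the 16 further marker lists, up to 4 called genes with the smallest p, and up to 2 others with the highest mean log2 CPM, could be named. The members, lists and tests were chosen with earlier results of these data known. Sample titles carry a number with the letter R or N, and some numbers recur within a group. The DBA/2J females have numbers in a range of their own. Whatever that range stands for cannot be told apart from sex in DBA/2J or from strain in females. The code in the labels also has a number, which follows the order of the groups and was not used as a term. What these codes stand for is not stated. No label names litters or cages, so whether animals of a group shared one is not known. The p-values take the animals as independent.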

Additional observations from a re-analysis of the deposited data

Results flagged for a closer look

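In 27 of 120 combinations of a member and a group (22.5%), the highest or lowest of 6 libraries lay far from the other 5 by Dixon's ratio. The cut-off passes about 1 in 20 for independent, normally spread values. Members vary together within a library, so the 120 are not independent and the 2 shares cannot be set against each other. The 27 came from 10 libraries. DBA/2J male Low Protein replicate 6 was the high library for all 10 members, at 108 CPM for Clec4f, 145 CPM for Cd5l, 26.5 CPM for Vsig4, 8.42 CPM for Timd4, 6.22 CPM for Marco, 31.6 CPM for Adgre1, 6.79 CPM for Cd68, 85 CPM for Csf1r, 34.1 CPM for C1qa and 27.4 CPM for C1qb. C57BL/6J female Low Protein replicate 1 was the high library for 6 members, at 320 CPM for Cd5l, 25.9 CPM for Timd4, 289 CPM for Marco, 76.8 CPM for Adgre1, 149 CPM for Csf1r and 53.9 CPM for C1qb. C57BL/6J female Control replicate 3 was high for Timd4 (15.8 CPM), Marco (59.9 CPM) and Adgre1 (48.7 CPM). DBA/2J female Low Protein replicate 5 was high for Cd5l (141 CPM) and Timd4 (8.51 CPM).

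Marco was the only member that this ratio flagged in C57BL/6J male Low Protein replicate 4 (21.8 CPM), C57BL/6J female Medium Protein replicate 3 (42.9 CPM), DBA/2J male Control replicate 1 (2.7 CPM) and DBA/2J male Medium Protein replicate 2 (3.34 CPM). In the C57BL/6J female, 5 members including Marco were over 1.5-fold above the median of the other 5 libraries. The others were Timd4 (2.03-fold), Adgre1 (1.93-fold), Cd5l (1.63-fold) and C1qa (1.55-fold). In the low direction, Adgre1 was at 6.93 CPM in C57BL/6J male Low Protein replicate 1, and C1qb at 10.3 CPM in DBA/2J female Medium Protein replicate 4. The strain effect differed between the sexes by the fitted interaction for Vsig4 (males minus females, log2 0.63) and for Cd68 (log2 0.63).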

How the results depend on the processing

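The counts of called members in 23 comparisons were recomputed under 13 other settings and with each library left out. Of these counts, 825 of 851 were within 1.5 times the main one. Most comparisons had 0 calls in the main fit and counted as within when they stayed at 0. The direction of calls was not weighed. Strain in females, with 4 lower, counted as within at 3 higher and 3 lower without the 7 libraries that stand apart. The settings that leave out libraries with much ribosomal-like RNA, high Saa1 or members that stand apart, and the robust fit, were chosen after seeing the data. Males against females in DBA/2J, with 0 calls, gave 7 under library totals, 8 without the 7 libraries that stand apart, and 1 each under the CPM filter, limma-voom, DESeq2, the fit on compared groups only and without the 4 ribosomal-like libraries. In C57BL/6J, 9 calls became 4 without the 7 libraries. DBA/2J against C57BL/6J in males gave 4 on compared groups only, against 2. The strain difference between sexes gave 1 without the 7 libraries, against 2. Low Protein against Control in C57BL/6J males, with 0 calls, gave 1 under library totals and 2 without the 7 libraries; its difference from females gave 1 without them. The mean Low Protein effect and Low Protein against Medium Protein in C57BL/6J females, with 0 calls, each gave 1 by DESeq2.

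With 1 library left out, calls ranged from 1 to 2 for strain in males, 3 to 5 for strain in females, 8 to 10 for sex in C57BL/6J, 0 to 2 for sex in DBA/2J, and 0 to 1 for the mean Low Protein effect and for Low Protein against Control and against Medium Protein in C57BL/6J females. The strain count in males was 1 without DBA/2J male Low Protein replicate 6, and the sex count in DBA/2J was 2 without it. Of the members' called results and Marco's diet estimates, only the diet estimates changed sign under these settings; estimates of members that were not called also changed sign without the 7 libraries. Against Control, Marco in C57BL/6J females was -0.52 without the high-Saa1 libraries and -0.31 without the 7, and ranged from -0.52 to 3.52 with 1 library left out. In DBA/2J females it was -0.0037 with the code letter as a term, with a range of -0.0052 to 0.75. In DBA/2J males it was -0.64 without the 7, with a range of -0.64 to 1.00. Against Medium Protein, Marco in C57BL/6J females was -0.027 without the high-Saa1 libraries and -1.34 without the 7, with a range of -0.028 to 4.01. In DBA/2J males it was -0.41 by limma-voom and -0.996 without the 7, with a range of -0.99 to 0.62, and in DBA/2J females the range was -0.73 to 0.10. Beyond the left-out libraries named, the cause was not tested. No paired analysis was possible because no label says that the numbers in the titles tie animals of different groups.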
